A study of Mus musculus with 13 samples.

Results

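The 39 protein-coding Hox genes of the mouse were followed in 13 tumors of a mouse model of NUT carcinoma (mNC), by cluster and by paralog number. Members were chosen by symbol, as every protein-coding gene named Hoxa, Hoxb, Hoxc or Hoxd with a number, and all 39 were found among the 55332 genes with values. Of these, 11 lie in the Hoxa cluster, 10 in Hoxb, 9 in Hoxc and 9 in Hoxd. The study asked whether Sox2 is needed in this squamous cancer, and compared Sox2 wild-type (WT) with Sox2 knockout (KO) tumors in each of 2 tissues. All tumors carry 1 copy of the NCT allele, which Cre activates, so no group is free of it. The 4 oral WT tumors are labelled KRT14-Cre; NCT+/-, with a Cre active in basal cells of stratified epithelia. For the 2 oral KO tumors the label reads KRT4Cre; NCT+/-; Sox2fl/fl, while the study's methods name KRT14-Cre. The 4 pancreatic WT tumors are Pdx1-Cre; NCT+/- and the 3 pancreatic KO tumors Pdx1-Cre; NCT+/-; Sox2fl; fl, with a Cre active in the pancreatic progenitor lineage. Each library is 1 whole tumor, with no sorting, and the labels give no age. In each comparison p-values measure the spread between these tumors.

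Hox genes encode homeodomain transcription factors that give cells their position along the body axis. They lie in 4 clusters in which the order on the chromosome follows the order of use in the embryo: low paralog numbers act in the hindbrain and the neck, middle numbers in the trunk, and high numbers in the lower trunk, limb ends and genital region. Tissue of the face and jaw in front of the hyoid arch is known for forming without Hox expression, while the gut tube uses anterior and middle members. Hox proteins bind DNA together with the TALE cofactors Pbx and Meis, Polycomb complexes keep silent clusters shut, and retinoic acid opens the anterior ends.

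On the GRCm38 genome build the Hoxa cluster spans chr6:52155590-52260880 on the minus strand, Hoxb chr11:96194316-96368256, Hoxc chr15:102921103-103036852 and Hoxd chr2:74668310-74765142, the last 3 on the plus strand. Promoter sequences from RefSeq (GRCm38.p6, 250 bases before to 50 after the start) matched 22 of the 39 members. Those of Hoxc4, Hoxd8 and Hoxd13 are shown because these genes are described in both tissue comparisons below and their promoters differ in base composition. Capitals mark the letters AGGTCA on either strand, the core letters to which retinoic acid receptors bind. The Hoxc4 sequence lies at chr15:103034145-103034444, Hoxd8 at chr2:74704365-74704664 and Hoxd13 at chr2:74667975-74668274, all on the plus strand.
Hoxc4: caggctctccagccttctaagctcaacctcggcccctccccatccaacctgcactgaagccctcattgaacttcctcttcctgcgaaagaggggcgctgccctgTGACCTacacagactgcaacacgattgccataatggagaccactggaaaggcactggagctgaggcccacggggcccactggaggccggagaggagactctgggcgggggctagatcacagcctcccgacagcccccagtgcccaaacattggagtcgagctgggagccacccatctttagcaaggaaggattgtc
Hoxd8: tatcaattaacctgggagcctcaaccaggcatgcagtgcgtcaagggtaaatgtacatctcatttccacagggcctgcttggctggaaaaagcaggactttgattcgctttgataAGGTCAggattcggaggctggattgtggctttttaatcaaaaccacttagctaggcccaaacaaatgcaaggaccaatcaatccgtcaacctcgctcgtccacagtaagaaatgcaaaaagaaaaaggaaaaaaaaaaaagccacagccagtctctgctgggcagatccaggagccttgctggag
Hoxd13: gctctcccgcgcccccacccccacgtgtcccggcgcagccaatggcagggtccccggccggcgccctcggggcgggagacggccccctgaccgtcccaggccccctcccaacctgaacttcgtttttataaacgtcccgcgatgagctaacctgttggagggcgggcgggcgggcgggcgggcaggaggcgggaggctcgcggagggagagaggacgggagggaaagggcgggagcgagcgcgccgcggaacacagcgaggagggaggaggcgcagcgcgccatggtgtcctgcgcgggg
These 3 windows hold 60.3%, 46.7% and 74.3% G and C, with 9, 6 and 37 CG pairs, against a median of 14.5 CG pairs in the 24 Hox promoters and of 7 in all 32851. AGGTCA occurred in 7 of the 24 Hox promoters (29.2%) and in 16.3% of all, searched on both strands. TGATTNAT (bound by Pbx with Hox), TGACAG (bound by Meis) and TTTATNG (bound by Cdx and posterior Hox proteins) each occurred in 2 of the 24 (8.33%). Over all promoters they occurred in 3.22%, 19.2% and 10.9%. With so few Hox promoters these shares are a description. None of these motifs contains another. A match is a description of the letters and not of a bound site.

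Levels are given as CPM, counts scaled to a common library size with TMM factors. Hox transcripts were a small part of each library and their sum ranged widely. The sum over the 39 members was 21.4, 199, 25.7 and 210.5 CPM in oral WT tumors 1 to 4, 104 and 39.5 in oral KO 1 and 2, 7.42, 30.9, 8.32 and 12.2 in pancreatic WT 1 to 4, and 18.3, 32.2 and 20.8 in pancreatic KO 1 to 3. The highest sums were therefore oral. The 2 tissues overlapped among WT tumors, through pancreatic WT 2, and did not overlap among KO tumors. In all, 36 of the 39 members reached 10 estimated counts in at least 1 tumor, and only Hoxc4 did so in all 13. The 3 that stayed under 10 everywhere were Hoxa10, Hoxa11 and Hoxb13. At a level of 1 CPM or more in any tumor stood 27 members. The number at 10 counts or more per tumor ran from 8 in oral WT 2 and pancreatic WT 1 to 29 in oral WT 4.

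**Figure D1:**
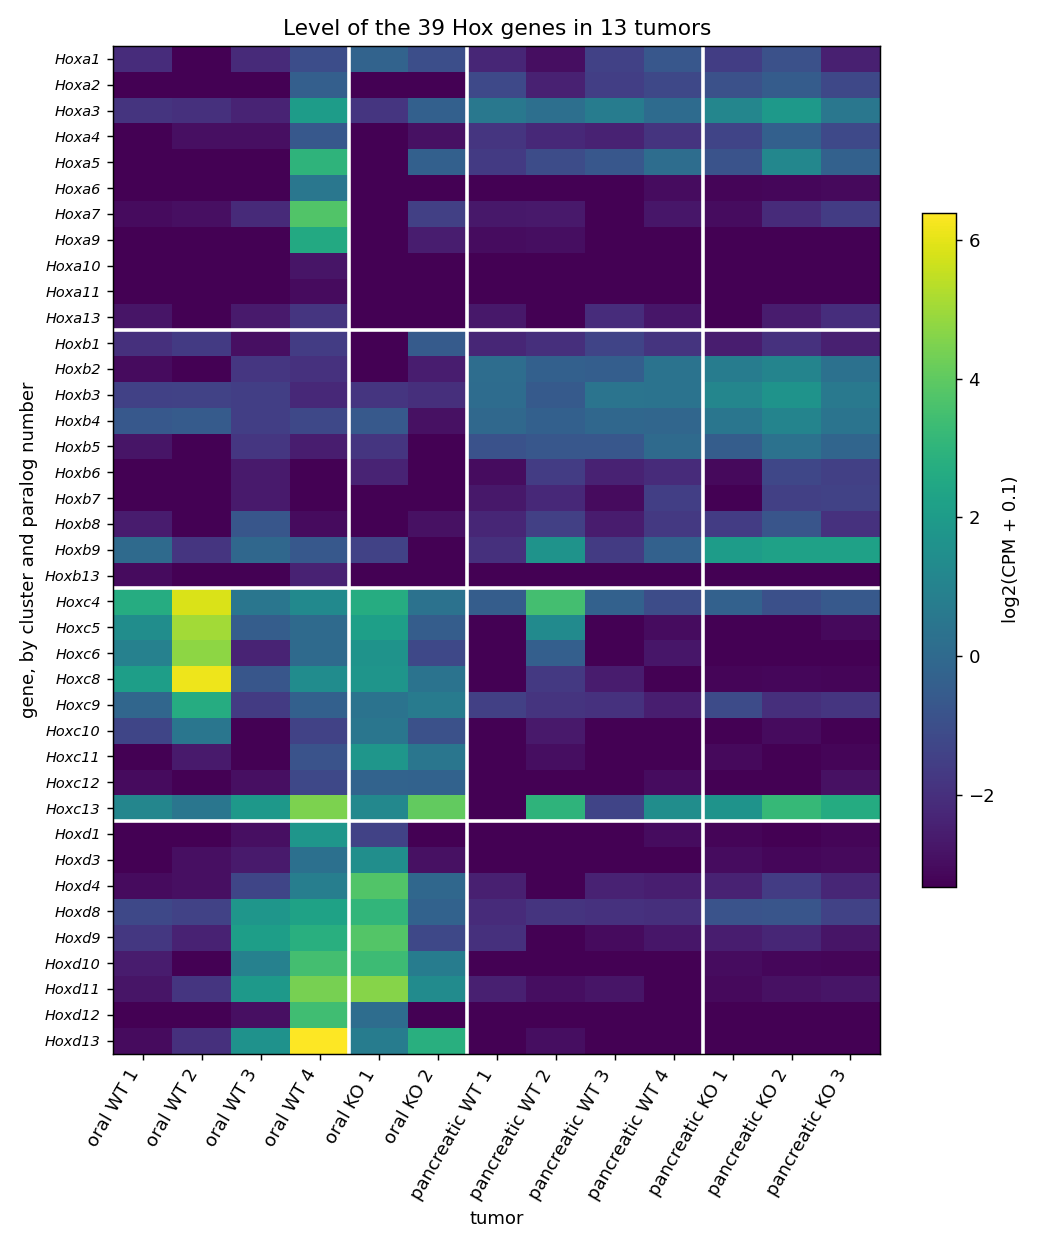
Level of each Hox gene (rows, by cluster and paralog number) in each of the 13 tumors (columns, by group), as log2(CPM + 0.1). Oral WT 4 is bright in Hoxa5 to Hoxa9 and across Hoxd, oral WT 2 in Hoxc4 to Hoxc9, and the pancreatic tumors in Hoxb2 to Hoxb5.

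Library totals were 29394258 to 40420228 estimated counts in oral WT, 11735315 and 20432164 in oral KO, 40964533 to 46134830 in pancreatic WT and 89562790 to 120482829 in pancreatic KO. Sox2 had 410 to 680 counts in oral WT, 1111 to 1487 in pancreatic WT, and 0 to 2 in the 5 KO tumors, as labelled. Protein-coding genes held 59.5% of oral KO 1 and 84.5% to 91.7% of the others, so oral KO 1 stands apart. The summed squamous markers (6 genes, Krt5 and Trp63 among them) were 4123 to 9717 CPM in oral and 11486 to 20846 in pancreatic tumors. Of these genes only Krt5 and Pkp1 did not overlap between the tissues. Trp63 was at 413 to 1055 CPM in oral and 570.1 to 1043 in pancreatic tumors. Pdx1 was at 0 in the 6 oral tumors and at 1.46 to 11.6 CPM in the 7 pancreatic ones. The 6 acinar markers, defining for normal pancreas, summed to at most 13.3 CPM except in pancreatic KO 3 (210.0). Fibroblast markers (6 of 6 found) summed to 8753 to 19107 CPM in oral and 1117 to 3723 in pancreatic tumors, the highest being oral WT 2. Dcn and Lum of that list overlapped between oral KO and pancreatic KO (Dcn at 115 and 34.6 CPM against 33.2, 121 and 62.7). Skeletal muscle markers summed to 4343 and 2509 CPM in oral KO 1 and 2, 396 in oral WT 4, and 2.02 to 6.34 elsewhere. In whole tumors, fewer cells of a type and less RNA per cell cannot be told apart.

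Each cluster had its own distribution over tumors. The Hoxb cluster was the steadiest, with a sum of 1.27 to 2.38 CPM in oral WT, 0.873 and 1.30 in oral KO, 3.72 to 6.34 in pancreatic WT and 9.88 to 14.0 in pancreatic KO. None of the 4 groups overlapped with any other except the 2 oral ones, which did by 1 tumor. Hoxd ran the other way, with 0.231 to 0.887 CPM in all pancreatic tumors against 0.691, 0.774, 16.6 and 144 in oral WT 1 to 4 and 75.7 and 12.8 in oral KO 1 and 2. Oral WT 1 and 2 thus lay within the pancreatic range and the other 4 oral tumors above it. Hoxc was 18.3, 197, 6.28 and 30.7 CPM in oral WT 1 to 4 and 25.9 and 23.7 in oral KO. In pancreatic WT it was 0.892, 22.6, 1.22 and 3.18, and in pancreatic KO 4.15, 9.57 and 6.96, so that pancreatic WT 2 alone reached the oral range among WT tumors. Hoxa was 0.217 to 0.438 CPM in oral WT 1 to 3 and 34.3 in oral WT 4, 0.931 and 2.15 in oral KO, and 1.76 to 7.70 in the pancreatic tumors.

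**Figure D2:**
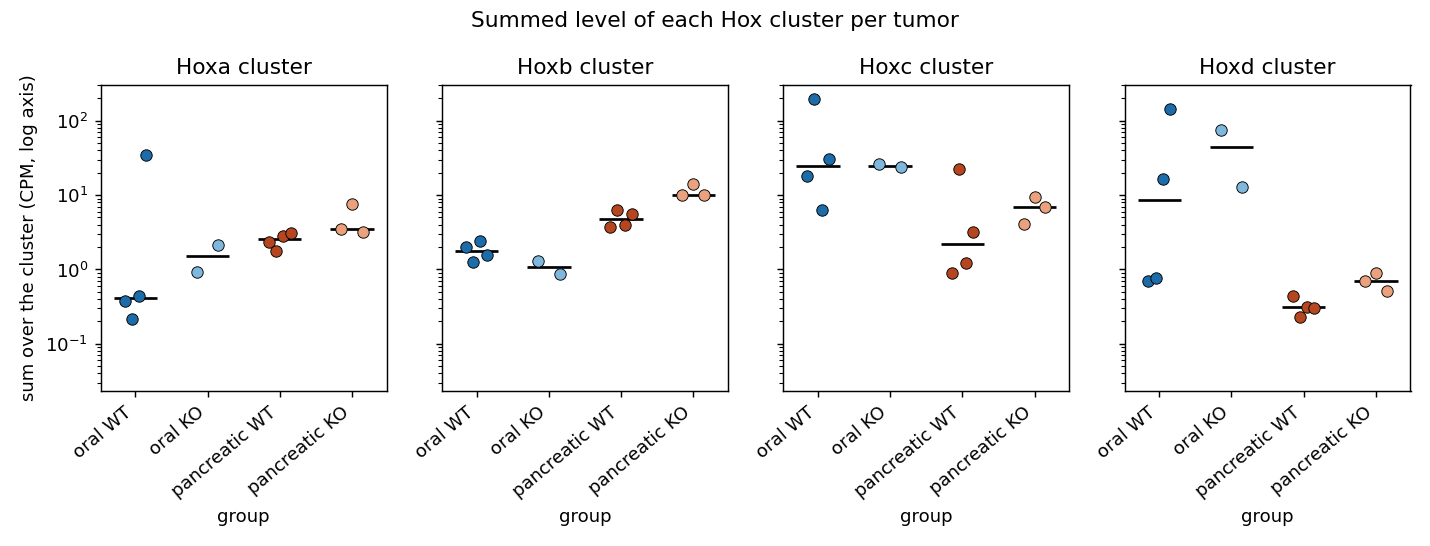
Sum of CPM over each Hox cluster (log axis) in each tumor (points) by group, with the group median as a line. Hoxb is higher in every pancreatic tumor (3.72 CPM or more) than in every oral tumor (2.38 or less), while Hoxa, Hoxc and Hoxd span a wide range among oral WT tumors, up to 34.3, 197 and 144 CPM.

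The make-up of the Hox transcripts differed as much as their sum. Hoxb members made up 43.6% to 54.1% of Hox CPM in 6 of the 7 pancreatic tumors and 20.5% in pancreatic WT 2, against 0.636% to 9.5% in oral tumors. Hoxd made up 64.6%, 68.4% and 72.9% in oral WT 3, oral WT 4 and oral KO 1, and at most 6.01% in pancreatic tumors. Hoxc made up 85.5% and 98.9% in oral WT 1 and 2, and 73.0% in pancreatic WT 2. By paralog number, members 1 to 3 held 0.341% to 4.88% of Hox CPM in oral tumors and 8.43% to 52.7% in pancreatic ones, with no overlap. Members 9 to 13 held 57.8% to 80.1% in oral WT 3, oral WT 4 and both oral KO tumors, but 21.3% and 4.8% in oral WT 1 and 2. In pancreatic WT they held 9.89% to 36.8%, and in pancreatic KO 41.2% to 54.4%, above oral WT 1 and 2. A high share of members 9 to 13 was thus neither common to all oral tumors nor confined to them. In pancreatic KO it came mainly from Hoxb9 (4.00 to 4.67 CPM) and Hoxc13 (3.04 to 8.97 CPM). There paralog groups 10, 11 and 12 each summed to at most 0.0541 CPM, and Hoxd13 was at 0.

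Neighbouring genes rose together in single tumors. In oral WT 2, Hoxc4 to Hoxc9 summed to 194 CPM and held 98.6% of its Hoxc sum, while Hoxc10 to Hoxc13 summed to 2.66. In oral WT 4, Hoxa5 to Hoxa9 summed to 28.4 CPM, against 0.255 for Hoxa10 to Hoxa13. The 5′ end of Hoxd was also high there: Hoxd12 and Hoxd13 summed to 94.3 CPM, and to 6.80 or less in every other tumor. In oral KO 1 the middle of the same cluster was high instead, with 56.6 CPM over Hoxd8 to Hoxd11, or 74.8% of its Hoxd sum, and 2.61 over Hoxd12 and Hoxd13. Oral WT 4 was the highest tumor for 15 of the 39 members, 9 of them in Hoxa. Oral KO 1 was highest for 9, oral WT 2 for 5, all in Hoxc, and a pancreatic tumor for 8, of which 7 lie in Hoxb. Skeletal muscle markers were highest in both oral KO tumors and in oral WT 4, and fibroblast markers highest in oral WT 2, as given above; their part in these levels was not tested.

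**Figure D3:**
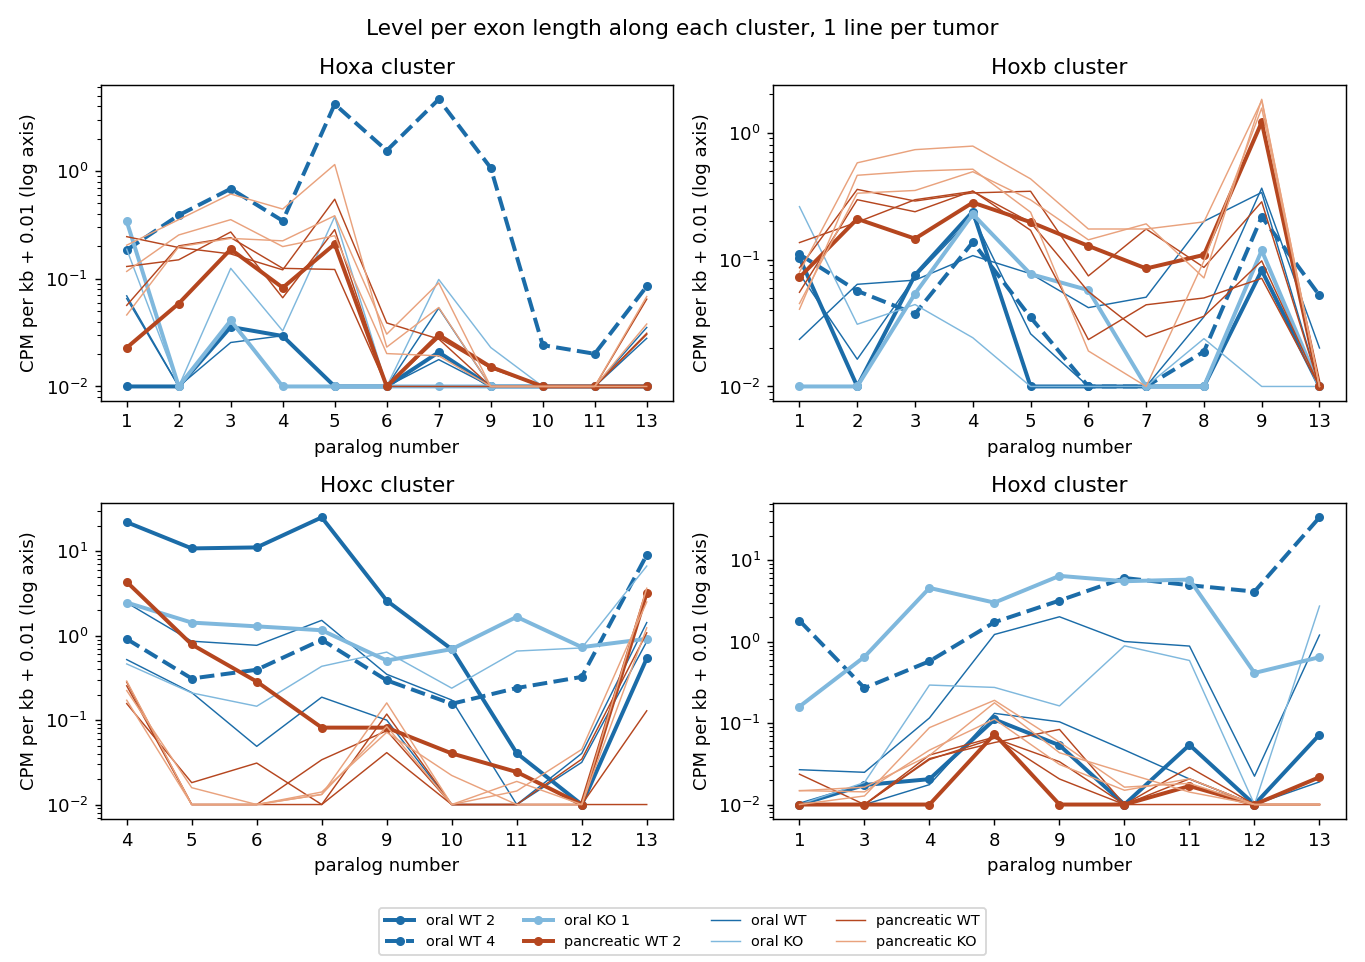
CPM per kb of merged exon (plus 0.01, log axis) along each cluster by paralog number, with 1 line per tumor and 4 tumors drawn thick. Oral WT 2 is high from Hoxc4 to Hoxc8 (up to 25.2 CPM per kb), oral WT 4 reaches 33.8 at Hoxd13, and Hoxb9 peaks in pancreatic WT 2 and the 3 pancreatic KO tumors (1.20 to 1.82).

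Per kb of exon, the highest member of each cluster over the 13 tumors was Hoxa5, Hoxb9, Hoxc4 and Hoxd13, at means of 0.570, 0.603, 2.66 and 2.95 CPM per kb. The peak of Hoxd13 came from 1 tumor, at 33.8 CPM per kb in oral WT 4 and at most 2.74 in any other. Hoxc13, which drives keratins of hair, nail and tongue papillae, ranked next after Hoxd13 and Hoxc4 with a mean of 2.40, and was spread over both tissues. It stood at 2.07, 1.30, 3.5 and 22.3 CPM in oral WT 1 to 4, 2.23 and 16.4 in oral KO, 0, 7.93, 0.293 and 2.63 in pancreatic WT, and 3.04, 8.97 and 6.15 in pancreatic KO. Its groups overlapped in every comparison.

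To ask how tissue and Hox expression relate in Sox2 WT tumors, pancreatic WT was compared with oral WT (4 against 4, edgeR quasi-likelihood test, Benjamini-Hochberg adjustment over all genes). Of the 39 members 23 had enough counts to be tested. Higher in pancreatic tumors were 3, all in Hoxb (Hoxb2, Hoxb3 and Hoxb5), against 7.24% of all 23164 genes tested. Lower were 7, against 9.3% of all genes: Hoxc8, Hoxc9 and Hoxc10, and Hoxd8, Hoxd9, Hoxd11 and Hoxd13. No Hoxa gene passed. The filter kept 11 members through the oral tumors alone and 7 through the pancreatic ones alone, so these counts and the median log2 fold change of -2.41 (0 over all genes) describe the members and do not support a direction.

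The 3 Hoxb genes are anterior members, known for patterning the hindbrain (Hoxb2 and Hoxb3) and the neck and the vagal neural crest of the gut (Hoxb5). Hoxb2 (chr11:96350525-96354012) was at 0.0223, 0, 0.188 and 0.162 CPM in oral WT 1 to 4 and at 0.997, 0.694, 0.654 and 1.21 in pancreatic WT 1 to 4. The groups did not overlap, and the log2 fold change was 3.21 ± 0.72 (SE) with an adjusted p of 0.0131 by edgeR. Hoxb3 (chr11:96323326-96347930) rose from 0.267, 0.279, 0.250 and 0.116 CPM in oral WT to 0.970, 0.579, 1.22 and 1.19 in pancreatic WT, again without overlap. Its log2 fold change was 2.11 ± 0.40, with an adjusted p of 0.00657 by edgeR. Hoxb5 (chr11:96303336-96306121) was at 0.0446, 0, 0.188 and 0.0696 CPM in oral WT and 0.446, 0.521, 0.518 and 0.934 in pancreatic WT. Here too every pancreatic tumor was above every oral one, by 2.97 ± 0.69 on the log2 scale (edgeR adjusted p = 0.0148). All 3 were still called with any 1 of the 8 tumors left out, with adjusted p between 0.00748 and 0.0398 by edgeR. They had all passed the count filter through the pancreatic tumors alone, so these fits are a description. At a minimum of 1 CPM in 2 tumors only Hoxb3 of the 3 was called.

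Hoxb4, between them in the cluster, also did not overlap (0.250 to 0.588 CPM in oral WT, 0.694 to 0.866 in pancreatic WT), but its log2 fold change of 0.93 ± 0.34 missed the threshold (edgeR adjusted p = 0.0819). Hoxb9 (chr11:96271457-96276595), a thoracic member, was at 0.914, 0.186, 0.844 and 0.534 CPM in oral WT and 0.157, 3.10, 0.225 and 0.707 in pancreatic WT. Pancreatic WT 2 stood above the rest, the groups overlapped, and the log2 fold change of 0.71 ± 0.91 was not called (edgeR adjusted p = 0.618). Without pancreatic WT 2 it was -0.79.

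Among the lower members, Hoxc8, Hoxc9 and Hoxc10 are known for setting the identity of the thoracic and lumbar trunk. Hoxc8 (chr15:102990607-102994111) was at 4.28, 71.5, 0.5 and 2.51 CPM in oral WT and at 0, 0.203, 0.0676 and 0 in pancreatic WT. The groups did not overlap, although oral WT 2 was far above its group, and the log2 fold change was -8.18 ± 1.91 (edgeR adjusted p = 0.0166). DESeq2 gave Hoxc8 no adjusted p, and its log2 fold change was -0.72 with apeglm shrinkage and -5.16 in edgeR without oral WT 2. Hoxc9 (chr15:102976439-102985099) was at 0.825, 6.28, 0.219 and 0.696 CPM in oral WT and 0.262, 0.174, 0.158 and 0.0757 in pancreatic WT. Oral WT 3 and pancreatic WT 1 overlapped, and the log2 fold change was -3.56 ± 1.04 (edgeR adjusted p = 0.0378). Without oral WT 2 it was -1.79 and Hoxc9 was not called. Hoxc10 (chr15:102966796-102971893) was at 0.312, 1.30, 0 and 0.278 CPM in oral WT and reached 0.0579 in pancreatic WT 2 alone. Its summed counts of 68 and 2 give an oral level 35.0 times the pancreatic one (exact 95% interval 9.32 to 295, counting error only), with overlap at oral WT 3 and an adjusted p of 0.0392 by edgeR. Part of its exons, 8.7%, is shared with Hoxc5 on the same strand.

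Hoxc4 (chr15:103018934-103036852), a neck member and the highest of its cluster per kb, was at 6.28, 56.7, 1.31 and 2.32 CPM in oral WT and 0.629, 11.1, 0.699 and 0.379 in pancreatic WT. Pancreatic WT 2 lay inside the oral range, and the log2 fold change of -2.41 ± 1.46 was not called (edgeR adjusted p = 0.273). For Hoxc4 it was -0.08 without oral WT 2 and -4.85 without pancreatic WT 2. Hoxc5 and Hoxc6, its neighbours, also overlapped between the groups through pancreatic WT 2 (2.40 and 0.665 CPM), and neither was called.

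The 4 called Hoxd genes belong to the set that shapes the limb and the urogenital region. Hoxd8 (chr2:74704615-74707933) was at 0.334, 0.279, 3.34 and 4.76 CPM in oral WT and within 0.131 to 0.174 in pancreatic WT. Every oral value was above every pancreatic one, and the log2 fold change was -3.81 ± 0.96 (edgeR adjusted p = 0.0218). Hoxd9 (chr2:74697727-74700208) was at 0.201, 0.0928, 4.31 and 6.85 CPM in oral WT and 0.157, 0, 0.0225 and 0.0505 in pancreatic WT. Oral WT 2 lay within the pancreatic range, and the log2 fold change was -5.57 ± 1.52 (edgeR adjusted p = 0.0296). Hoxd11 (chr2:74679557-74687016), which shapes the forearm and the shank, was at 0.0446, 0.186, 3.69 and 20.9 CPM in oral WT and 0.0787, 0.0289, 0.0451 and 0 in pancreatic WT. Oral WT 1 lay within the pancreatic values, and the log2 fold change was -7.23 ± 1.94 (edgeR adjusted p = 0.0283). A share of 10.8% of its exons lies in the overlapping same-strand transcript Gm28309, itself at 353 counts in oral WT 4.

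Hoxd13 (chr2:74668310-74671599), the digit and genital member at the 5′ end, had the widest range of all. It was at 0.0223, 0.155, 2.97 and 83.8 CPM in oral WT and at 0 in pancreatic WT except 0.0289 in pancreatic WT 2. The oral sum of 3713 counts, 3612 of them from oral WT 4, stood against 1 count in pancreatic WT, a ratio of 3820.1 (exact 95% interval 685 to 150928, counting error only), with an adjusted p of 0.0285 by edgeR and overlap at oral WT 1. DESeq2 gave Hoxd13 no adjusted p and, with apeglm shrinkage, a log2 fold change of -0.31. The edgeR call was lost with any 1 pancreatic WT tumor left out (adjusted p 0.0691 to 0.126). Evx2, the homeobox gene next to Hoxd13, had 19.1 CPM in the same oral WT 4 and at most 1.06 in any other tumor. Hoxd10 was at 0.0669, 0, 1.81 and 11 CPM in oral WT and at 0 in every pancreatic WT tumor, at least 184-fold lower against a floor of 3 counts over the group, yet not called (edgeR adjusted p = 0.0751).

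The lower calls were less steady than the higher ones. Leaving out pancreatic WT 3, 4, 1 or 2 gave 0, 1, 2 or 3 lower calls in place of 7. Without pancreatic WT 2 the 3 were Hoxc5, Hoxc6 and Hoxc8, of which only Hoxc8 was among the 7. Without oral WT 4, Hoxa2, Hoxa3 and Hoxa5 joined the higher calls, which then numbered 6. Hoxa5 (chr6:52201754-52204587), known for its role in the lung, was at 0 in oral WT 1 to 3, at 7.82 CPM in oral WT 4 and at 0.210, 0.376, 0.518 and 1.01 in pancreatic WT. Its log2 fold change was -1.90 ± 1.76 over all 8 tumors (edgeR adjusted p = 0.48), since oral WT 4 outweighed the rest. The sum of the fibroblast markers differed between the tissues without overlap, as given above, and their part in the Hoxc and Hoxd levels was not tested.

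The same comparison in Sox2 KO tumors uses other tumors throughout (3 pancreatic against 2 oral). Of the 39 members 27 were tested, 14 of them kept through the pancreatic tumors alone and 7 through the oral ones alone. Higher in pancreatic KO were 6 (Hoxa2, Hoxa4, Hoxb2, Hoxb3, Hoxb5 and Hoxb9), against 10.7% of all 24787 genes tested. Lower were 11, against 14.6% of all genes: Hoxc4, Hoxc5 and Hoxc8 to Hoxc11, and Hoxd4, Hoxd8, Hoxd10, Hoxd11 and Hoxd13. The median log2 fold change of the 27 was -0.72 (0 over all genes).

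The anterior Hoxb genes were again among the higher ones. Hoxb2 was at 0 and 0.0728 CPM in oral KO and 1.57, 1.98 and 1.13 in pancreatic KO, or 29.2 times higher (exact 95% interval 8.04 to 242 from 474 and 2 counts), with an adjusted p of 0.0113 by edgeR. Hoxb3 was at 0.186 and 0.146 CPM in oral KO and 2.07, 3.08 and 1.44 in pancreatic KO, a log2 fold change of 3.68 ± 0.61 (edgeR adjusted p = 0.0114). Hoxb5 was at 0.186 and 0 CPM in oral KO and 0.631, 1.18 and 0.794 in pancreatic KO, 16.1 times higher (interval 4.41 to 134), with an adjusted p of 0.0495 by edgeR. The call of Hoxb5 was lost in 4 of the 5 fits with 1 tumor left out (adjusted p up to 0.125) and with protein-coding genes alone (0.0906). For Hoxb2, Hoxb3 and Hoxb5 every pancreatic KO tumor lay above every oral KO one, which groups this small can show without a difference. Hoxb9 was at 0.279 and 0 CPM in oral KO and 4.00, 4.58 and 4.67 in pancreatic KO, 56.1 times higher (interval 19.1 to 272, edgeR adjusted p = 0.0165). In Hoxa, Hoxa2 had 0 counts in oral KO and 139 in pancreatic KO, at least 5.71-fold higher, and Hoxa4 had 1 and 132; Hoxa5 overlapped between the tissues and was not called (1.35 ± 1.14 on the log2 scale, edgeR adjusted p = 0.386).

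The 11 members called lower in pancreatic KO were all Hoxc or Hoxd genes. None of them overlapped between the tissues, but groups this small can separate without a difference. The share of all genes without overlap is not given here, so this is a description. Hoxc13 was tested and not called, and Hoxc6, Hoxc12, Hoxd1, Hoxd3, Hoxd9 and Hoxd12 were not tested. Hoxc8 was at 3.26 and 1.20 CPM in oral KO and at 0.00888, 0.0115 and 0.00902 in pancreatic KO, an oral level 184 times higher (interval 60.3 to 914, edgeR adjusted p = 0.0053). Hoxc9 was at 1.21 and 1.53 CPM against 0.364, 0.150 and 0.180, a log2 fold change of -2.64 ± 0.54 (edgeR adjusted p = 0.0179). Hoxc4 was at 6.33 and 1.16 CPM in oral KO and 0.719, 0.415 and 0.550 in pancreatic KO (-2.79 ± 0.73, edgeR adjusted p = 0.0332). All 3 were thus expressed in both oral KO tumors. Hoxc10 had 26 counts in oral KO and 2 in pancreatic KO, a ratio of 105 (interval 26.4 to 917, edgeR adjusted p = 0.0122).

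In Hoxd, Hoxd8 was at 8.28 and 0.728 CPM in oral KO and 0.462, 0.496 and 0.280 in pancreatic KO (-3.5 ± 0.95, edgeR adjusted p = 0.0377). Without oral KO 1 the log2 fold change of Hoxd8 was -0.95 and that of Hoxc4 -1.18, and neither was called. Hoxd11 was at 24.5 and 2.44 CPM in oral KO and 0.0178, 0.0346 and 0.0451 in pancreatic KO (-8.70 ± 1.16, edgeR adjusted p = 0.00841). Hoxd13 was at 1.58 and 6.80 CPM in oral KO with 0 counts in pancreatic KO, at least 552-fold lower (edgeR adjusted p = 0.0112). Oral KO 1 was the higher oral KO tumor for Hoxd8 and Hoxd11 and the lower one for Hoxd13. Hoxd9 was at 13.8 and 0.327 CPM against 0.0451 to 0.104, but did not reach the count minimum in 2 tumors and was not tested. For Hoxd4 (13.5 and 0.837 CPM in oral KO) 52.3% of the exons are shared with Hoxd3 and Gm28230 on the same strand, so the split of its counts is uncertain.

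Between the genotypes 21 members were tested in both tissue comparisons, which share no tumor. The 3 higher calls of the WT tumors were all called higher in the KO tumors, and 6 of the 7 lower calls were called lower; Hoxd9 was not tested there. Over all genes, 36.8% of the higher and 37.3% of the lower WT calls were called so in KO. Most members passed the count filter through 1 tissue alone in each genotype, so these counts describe the members and do not support a direction. Without oral KO 1 only 20 members were tested and without oral KO 2 only 19, in place of 27. Members missing from those fits could not be called, and the lone oral tumor had no spread of its own. Without pancreatic KO 1, 2 or 3, 3, 3 or 4 were higher and 8, 7 or 7 lower. Hoxb2, Hoxb3 and Hoxb9 were called in each of the fits without a pancreatic KO tumor. Both oral KO tumors carried skeletal muscle markers (4343 and 2509 CPM against 2.87 to 3.38 in pancreatic KO), whose part in the Hox differences was not tested.

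**Figure D4:**
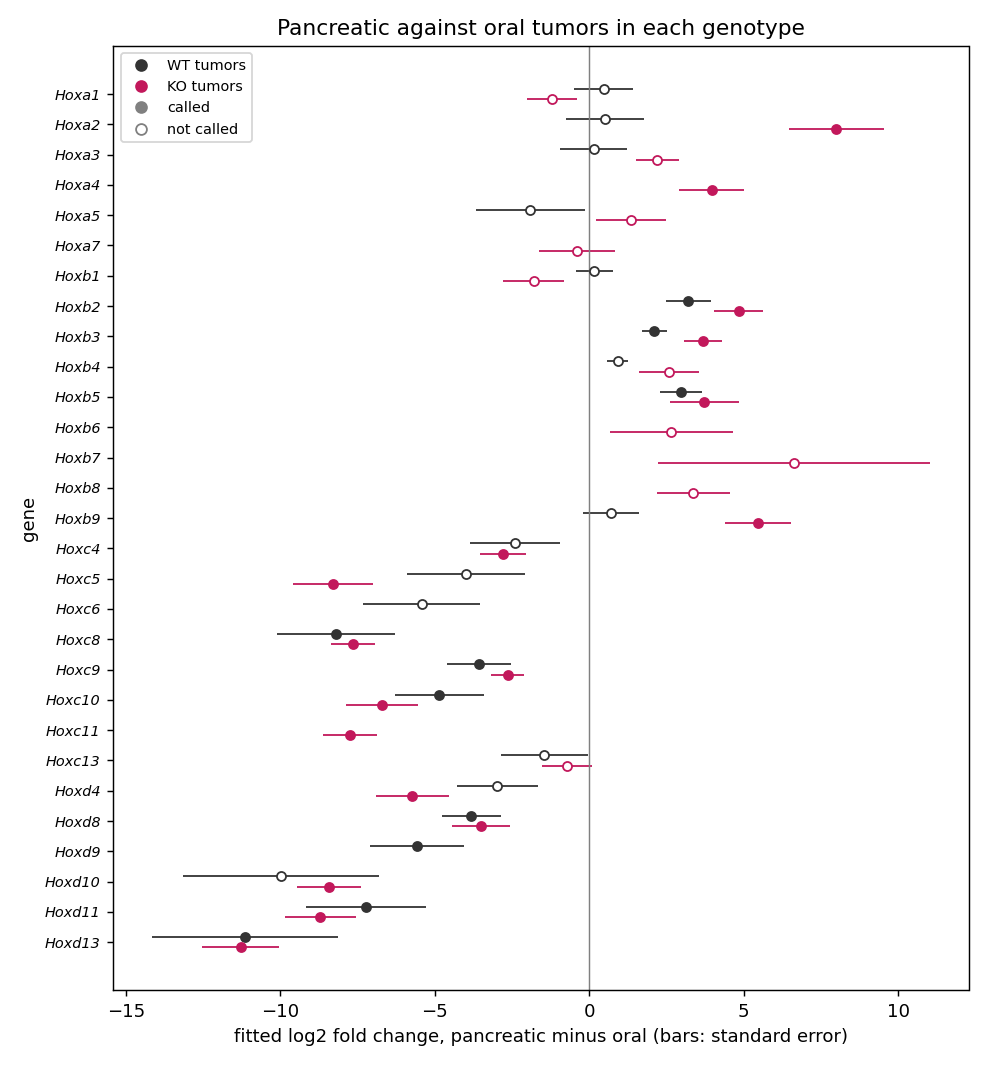
Fitted log2 fold change, pancreatic minus oral, with its standard error, for the Hox genes tested in WT (black) and KO (pink) tumors; filled points were called. Hoxb2, Hoxb3 and Hoxb5 lie to the right in both genotypes and the called Hoxc and Hoxd genes to the left; fits for genes at 0 to 3 counts in 1 group, such as Hoxd13 and Hoxa2, depend on the prior count.

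To ask whether Sox2 loss moved Hox expression, each tissue's KO tumors were set against its WT tumors. In oral tumors 23 members were tested and 0 were called by edgeR, against 11.7% of the 22342 genes tested (8.81% higher and 2.89% lower in KO); 3 had an unadjusted p under 0.05, and DESeq2 called 1, Hoxc11. Hoxc11, which acts in the lumbosacral trunk and the hindlimb, was at 0, 0.0619, 0 and 0.464 CPM in oral WT and 3.35 and 1.31 in oral KO. The groups did not overlap, and the log2 fold change was 4.23 ± 1.34 (edgeR adjusted p = 0.0773). Hoxc12, a posterior neighbour, was at 0.0223, 0, 0.0313 and 0.325 CPM in oral WT and 0.745 and 0.728 in oral KO (3.02 ± 1.16, edgeR adjusted p = 0.113), likewise without overlap. Hoxd4 was at 0.0223, 0.0309, 0.313 and 1.67 CPM in oral WT and 13.5 and 0.837 in oral KO (3.98 ± 1.61, edgeR adjusted p = 0.132), with overlap. Hotair, the long non-coding RNA between Hoxc11 and Hoxc12, had 1, 1, 0 and 5 counts in oral WT and 24 and 10 in oral KO, and was called higher (4.88 ± 1.07 on the log2 scale, edgeR adjusted p = 0.0316). Without oral WT 4, Hoxc11 and Hoxd4 were called higher (6.83 and 6.07 on the log2 scale). Without oral KO 1 they were at 3.39 and 0.85 (edgeR adjusted p = 0.238 and 0.792). Depth was lowest in oral KO, and both KO tumors carried muscle markers.

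In pancreatic tumors 20 members were tested and 0 were called by edgeR, against 0.629% of 24653 genes (0.337% higher and 0.292% lower in KO); 6 had an unadjusted p under 0.05 and DESeq2 called none. The 3 with the smallest p were Hoxd8, Hoxa4 and Hoxb4. Hoxd8 was at 0.131, 0.174, 0.158 and 0.151 CPM in pancreatic WT and 0.462, 0.496 and 0.280 in pancreatic KO, without overlap (1.40 ± 0.36 on the log2 scale, edgeR adjusted p = 0.118). Hoxa4, a neck member, was at 0.184, 0.116, 0.0902 and 0.177 CPM in WT and 0.302, 0.692 and 0.343 in KO, also without overlap (1.62 ± 0.45, edgeR adjusted p = 0.141). Hoxb4, known for expanding blood stem cells, was at 0.866, 0.694, 0.856 and 0.833 CPM in WT and 1.30, 1.98 and 1.24 in KO (0.87 ± 0.28, edgeR adjusted p = 0.189). KO values thus lay above WT values in these 3 genes, but each missed the adjusted p threshold of 0.05 by edgeR. Hoxb4 also missed the fold change threshold of 1 on the log2 scale. The median log2 fold change of the 20 was 0.88 and 18 were above 0, against a median of 0.02 over all genes, but 8 of the 20 passed the filter through the deeper KO libraries alone and the numbers are a description.

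The genotype effect was then compared between the tissues in 1 fit of all 13 tumors. Of 32 members tested 0 were called by edgeR, against 12.3% of 25836 genes (4.85% with a higher and 7.41% with a lower effect in the pancreas); 1 had an unadjusted p under 0.05, and DESeq2 called 1, in both cases Hoxb9. Its genotype effect was higher in the pancreas by 4.64 ± 1.81 on the log2 scale (edgeR adjusted p = 0.0964), and it was called without pancreatic WT 2; without oral KO 1 the only member called was Hoxb4. Within the pancreas KO and WT did not overlap for Hoxb9 (4.00 to 4.67 against 0.157 to 3.10 CPM, 2.08 ± 0.91, edgeR adjusted p = 0.325). Hoxb3 had the next smallest p of the difference (1.51 ± 0.71, edgeR adjusted p = 0.156).

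The transcripts beside the Hox genes gave some of the same patterns. Of 46 other genes annotated inside the clusters 14 reached 10 counts in any tumor. Gm53, a long non-coding RNA between Hoxb13 and Hoxb9, was at 7.53, 0.836, 8.31 and 9.31 CPM in oral WT, 1.21 and 1.06 in oral KO, 2.10, 22.1, 1.04 and 6.97 in pancreatic WT, and 31.8, 24.6 and 33.6 in pancreatic KO. Its highest tumors were those of Hoxb9, with pancreatic WT 2 again the highest of the WT tumors. It was called higher in pancreatic than in oral KO (4.66 ± 0.30 on the log2 scale, edgeR adjusted p = 0.00292). The precursor of miR-196a in the same interval, Mir196a-1, had 37, 36 and 66 counts in pancreatic KO, 16 in pancreatic WT 2 and at most 5 elsewhere. Scaled for depth these were 0.329, 0.415 and 0.596 CPM in pancreatic KO and 0.463 in pancreatic WT 2, which thus lay within the KO range. miR-196a is known for cutting the transcript of Hoxb8 and is shown beside miR-196b of the Hoxa cluster, whose precursor had 0 counts in all 13 tumors; capitals mark the seed, bases 2 to 8, which both share.
miR-196a-5p: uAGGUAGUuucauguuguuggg
miR-196b-5p: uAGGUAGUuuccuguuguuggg
Reads of this kind come from precursors in total RNA and do not measure the mature forms. Hoxb8 itself was at 0.162 to 0.496 CPM in pancreatic KO and 0.0676 to 0.260 in pancreatic WT.

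**Figure D5:**
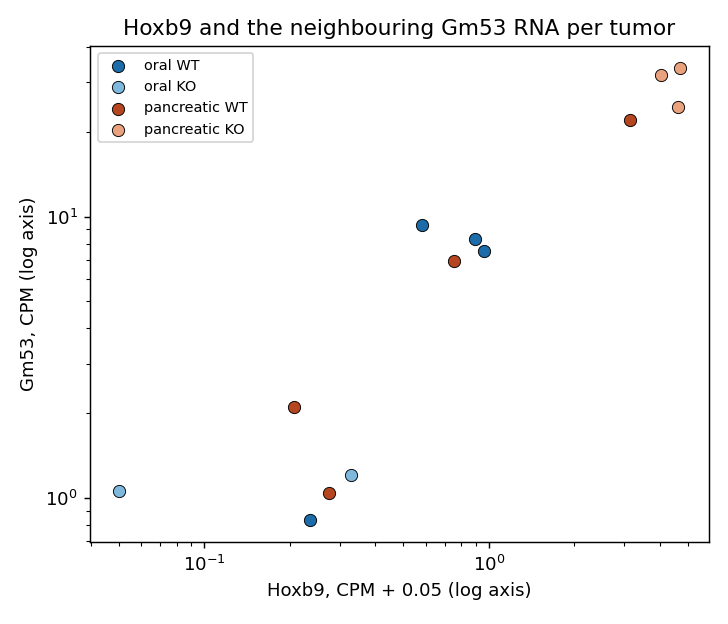
CPM of Gm53 (vertical, log axis) against CPM of Hoxb9 plus 0.05 (horizontal, log axis), 1 point per tumor, coloured by group. The 3 pancreatic KO tumors (24.6 to 33.6 CPM of Gm53) and pancreatic WT 2 (22.1) lie highest on both axes, and both oral KO tumors lie low (1.06 and 1.21), beside oral WT 2 (0.836) and pancreatic WT 3 (1.04).

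The partners and regulators of Hox proteins were read from lists. Of 9 TALE cofactors, all tested, 1 was higher and 1 lower in pancreatic WT than in oral WT, where 7.24% and 9.3% of all genes were. Meis1 was at 15.7, 14.6, 5.56 and 10.9 CPM in oral WT and 99.0, 197, 165 and 91.2 in pancreatic WT, with no overlap (3.56 ± 0.39, edgeR adjusted p = 0.00103). It was called in the KO tumors too (3.35 ± 0.74, edgeR adjusted p = 0.023). Pbx3 was lower (25.3 ± 8.69 CPM in oral WT, 12.3 ± 1.88 in pancreatic WT, SD, n = 4 each; edgeR adjusted p = 0.014). Of 15 Polycomb genes 0 were higher and 1 lower, Cbx7 (12.4 ± 2.10 and 4.44 ± 1.10 CPM, -1.49 ± 0.23 on the log2 scale, edgeR adjusted p = 0.00264). Of 12 Trithorax and elongation genes, which keep Hox genes on, none passed in either direction by edgeR in WT, and 2 were higher in pancreatic KO.

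In the list of retinoic acid and Cdx genes 11 of 15 were tested and 3 were higher in pancreatic WT, all enzymes of retinoic acid synthesis, led by Rdh10 (28.7 ± 8.46 CPM in oral WT, 69.7 ± 10.5 in pancreatic WT, SD, n = 4 each; edgeR adjusted p = 0.00506). The receptor gene Rarb was lower (3.23 ± 1.42 and 1.06 ± 0.454 CPM, edgeR adjusted p = 0.024). Among ParaHox and flanking genes, Pdx1 was higher and Evx2 lower in pancreatic WT (edgeR adjusted p = 0.00148 and 0.0487). In the KO tumors 2 of 9 TALE, 2 of 15 Polycomb, 2 of 12 Trithorax and 3 of 12 retinoic acid genes tested were higher in the pancreas, against 10.7% of all genes, and 1 of 15 Polycomb genes, again Cbx7, was lower, against 14.6%. In neither genotype comparison was any TALE, Polycomb, Trithorax, retinoic acid or ParaHox gene of these lists called by edgeR. The genotype effect itself was called higher in the pancreas than in the oral tumors for 2 of 9 TALE genes (Pbx2 and Pbx3). The same held for 3 of 15 Polycomb genes (Cbx8, Cbx2 and Phc1), 2 of 12 Trithorax and elongation genes (Mllt1 and Psip1) and 4.85% of all genes. Each of those named had a lower mean in oral KO than in oral WT, and a higher one in pancreatic KO than in pancreatic WT. Mean CPM in oral WT and oral KO was 71.4 and 35.8 for Pbx2, 19.7 and 8.56 for Cbx8, and 79.3 and 37.3 for Mllt1. In pancreatic WT and KO it was 46.9 and 54.0, 16.4 and 19.3, and 76.4 and 89.7. The part of the low depth and muscle markers of oral KO was not tested.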

How the data were processed

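Bulk RNA sequencing of 13 tumors was analysed, 1 library each, from rRNA-depleted total RNA. The authors trimmed reads with Trim Galore 0.6.10, checked them with FastQC 0.12.1, quantified them strand-specifically with Kallisto 0.50.0 on GENCODE M23 transcripts and summed them per gene with tximport; the estimated counts they deposited are not scaled for library size, and 27.3% of them are not whole. Of 56085 genes, 753 have no values. Symbols, positions and exon lengths came from GENCODE M21 (GRCm38) by Ensembl identifier.

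Estimated counts were rounded and fitted in R 4.3.3 with edgeR 4.0.16 (TMM, robust quasi-likelihood, Benjamini-Hochberg adjustment over all genes tested) on the tumors of each comparison, for genes that reached 10 counts in 2 or more of them. A call needed an adjusted p below 0.05 together with a log2 fold change beyond 1 in either direction. A standard error is the fold change over the square root of its F statistic. CPM use TMM-scaled totals. Where a group had 3 counts or fewer, a ratio of summed counts with an exact 95% interval, or a bound against 3 counts over the group, replaced the fitted fold. The fit was tested on simulated data with 200 genes changed by 2 on the log2 scale. It recovered 68.5% in the WT tissue comparison, 57.0% in the KO one, 45.0% for genotype in oral and 67.0% in pancreatic tumors. False calls numbered 9, 18, 11 and 8. The changed genes were drawn above a count floor in the smallest library that many Hox members do not reach, so these rates do not hold for those members.

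Members and lists were chosen with earlier results of these data known. Full values are given for called members (up to 10 per direction, by adjusted p) and the highest of each cluster per kb in both tissue comparisons, and for those of smallest p in the genotype fits; from each list, the called gene of smallest adjusted p per direction. Other genes named, and the stretches of neighbours, were chosen after their values were seen. DESeq2 1.42.0 (with and without apeglm 1.24.0), other scalings, filters and left-out tumors were alternatives.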

Additional observations from a re-analysis of the deposited data

Results flagged for a closer look

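Examined were 32 sets of 4 WT tumors (a fully reported member that reached 10 counts there, or a cluster sum, in 1 tissue). In 14 of them a tumor's gap to its nearest neighbour took up more of the group's range than Dixon's 95% critical value for 4 samples. Chance flags about 1 in 20 where values are normally distributed. These CPM are skewed and some are 0, so that rate need not hold here. The sets share tumors and neighbouring genes, so they are not independent. Of the 14, 11 were in oral WT. Oral WT 4 stood apart in Hoxa4 (0.534 CPM, next 0.0313), Hoxa5 (7.82, next 0), Hoxc11 (0.464, next 0.0619), Hoxc12 (0.325, next 0.0313), Hoxd13 (83.8, next 2.97), the Hoxa sum (34.3, next 0.438) and the Hoxd sum (144, next 16.6). Oral WT 2 stood apart in Hoxc4 (56.7 CPM, next 6.28), Hoxc8 (71.5, next 4.28), Hoxc9 (6.28, next 0.825) and the Hoxc sum (197, next 30.7). In pancreatic WT, tumor 2 stood apart in Hoxc4 (11.1 CPM, next 0.699) and the Hoxc sum (22.6, next 3.18), and tumor 4 in Hoxb5 (0.934, next 0.521). Islet markers summed to 22.6 CPM in pancreatic WT 2 and to 0.328 to 0.708 in the other pancreatic WT tumors, and skeletal muscle markers to 396 in oral WT 4; their part in these values was not tested.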

How the results depend on the processing

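Over all alternatives run, 412 of the values of single named genes kept their direction and side of the threshold, 62 lost the call, 11 gained it and 4 reversed, while DESeq2 gave 8 no adjusted p (Hoxa5, Hoxc4, Hoxc8 and Hoxd13 between the WT tissues). The reversed values were not called in the main comparison: Hoxa5, WT tissues, 2.06 with the tumor number as a replicate block and 7.33 without oral WT replicate 4, and Hoxb9, WT tissues, -0.16 with the replicate block and -0.79 without pancreatic WT replicate 2 (log2; with 1 tumor left out they ranged from -2.42 to 7.33 and from -0.79 to 1.06). In the WT tissue comparison the 3 higher calls became 1 at a minimum of 1 CPM in 2 tumors, where 13 members were tested, and 3 to 6 with a tumor left out; the 7 lower calls became 1 with no count filter (39 members tested) and 0 to 6 with a tumor left out. In the KO comparison the 6 higher calls became 3 at the 1 CPM minimum (14 tested) and 3 with counts thinned to the smallest library (16 tested). With a pancreatic tumor left out they became 3 or 4, and the 11 lower calls 7 or 8. Without oral KO 1 or 2 only 20 or 19 members were tested, and the lone oral tumor was taken to vary like the other group. For oral KO against WT the 0 higher calls became 1 with either DESeq2 setting, 1 with thinned counts, 2 in 1 fit of all 13 tumors and 0 to 2 with a tumor left out. For the difference between tissues 0 became 1 with either DESeq2 setting and 0 to 1 with a tumor left out. The same tumor number in 2 groups names no shared animal, and deviations of same-numbered tumors correlated at -0.08 to 0.32, so the numbers do not pair them; with the replicate block the KO lower calls numbered 7 and oral KO against WT had 1 higher call, Hoxd13. Mean sums in oral KO moved by more than their spread: Hoxc from 24.8 to 27.8 CPM without TMM, and with totals of protein-coding genes Hoxa to 2.43, Hoxb to 1.70 and Hoxc to 38.8; the low coding share of oral KO 1 enters these totals. The cause of the changed counts was not tested. The other 235 counts and sums did not move by that measure. Depth limits the oral KO values most, where 1 count is about 0.0931 CPM in oral KO 1.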
